A study of Mus musculus with 24 samples.

Results

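The genes described here encode the mitochondrial respiratory chain and ATP synthase in mouse macrophages, whether they lie in the nucleus or in the mitochondrial genome. A gene was a member when it was annotated as protein coding, its GENCODE M21 symbol began with Nduf, Sdha to Sdhd, Uqcr, Cyc1, Cox4 to Cox8, Atp5, mt-Nd, mt-Co, mt-Cytb or mt-Atp, and at least 10 counts were found in 3 or more of the 24 libraries. Of 111 genes whose symbols met the rule, 101 passed the count minimum, among 12765 genes tested and 43629 identifiers in the count tables. The nuclear genome holds 92 of them, with 44 for complex I, 8 for complex II, 9 for complex III, 14 for complex IV and 17 for complex V (ATP synthase), of which 14 are assembly factors or factors outside the mature complexes. The mitochondrial genome holds 9. The cells were wild-type C57BL/6 bone marrow-derived macrophages, grown for 7 days in 20 ng/mL CSF-1, which was kept in the medium of every group. There were 8 groups of 3 libraries: LPS, LPS with IFNg (50 ng/mL), IL-4 (20 ng/mL) and unstimulated cells, each at 1 h and at 18 h. LPS was used at 20 or 100 ng/mL, and the labels do not say which concentration went with which library. The series concerns reactive oxygen species, DNA damage and the dependence on NAD+ in inflammatory macrophages.

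In the respiratory chain, complexes I and II pass electrons to coenzyme Q, complex III passes them to cytochrome c, and complex IV passes them to oxygen. Complexes I, III and IV pump protons, and complex V lets the protons back to make ATP. Complexes I, III, IV and V each combine subunits translated in the cytosol with subunits encoded in the mitochondrial DNA, so both genomes supply them, while complex II is encoded in the nucleus alone. In macrophages, LPS with IFNg is known to favour glycolysis and to damp respiration, and IL-4 is known to favour oxidative metabolism.

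Part of the mouse mitochondrial genome also lies as a nuclear copy on chromosome 1, and the sequences below are shown because some mitochondrial genes have almost no counts under their own name while a copy has many. The first 41 bases of mt-Atp6 (chrM:7927-7967, plus strand, GRCm38) and of its copy Gm10925 (chr1:24614611-24614651, minus strand) are the same, as are all 678 aligned bases of the pair. The mt-Nd3 gene and its copy Gm28438 differ by T3C among 345 aligned bases. The stretches shown of this pair are chrM:9459-9481 (plus strand) and chr1:24613097-24613119 (minus strand). The mt-Co1 gene (chrM:6381-6403, plus strand) and the shorter copy Gm29216 (chr1:24616175-24616197, minus strand) differ by T1056A, C1057T, A1059G, A1060G, C1062A and A1066T among 492 aligned bases. Positions are counted from 1 at the start of the mitochondrial gene, the transcripts are those of GENCODE M21, and capitals mark bases that differ within a pair.
mt-Atp6: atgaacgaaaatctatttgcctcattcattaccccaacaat
Gm10925: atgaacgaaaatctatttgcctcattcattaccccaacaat
mt-Nd3: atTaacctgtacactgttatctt
Gm28438: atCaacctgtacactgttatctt
mt-Co1: ggTCtAAcCggaAttgttttatc
Gm29216: ggATtGGcAggaTttgttttatc
Over all 24 libraries mt-Atp6 had 52 counts against 335891 for Gm10925, and mt-Co2 had 58 against 275663 for its copy Gm28661. The gene mt-Co3 had 69 counts against 353363 for its copy Gm28437. These mitochondrial genes and mt-Atp8 fell under the count minimum. Of the pairs that differ at the bases marked above, mt-Nd3 had 23196 counts against 2224 for Gm28438, and mt-Co1 had 696730 against 278111 for Gm29216. Outside the marked bases their aligned stretches are also the same. How reads that match several places were assigned is not given in the sources used here, so counts of a gene and its copy cannot be told apart where their bases are the same.

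The promoters of 4 nuclear members that behaved differently after stimulation are shown because each holds the letters GCATGCGC, part of the known recognition sequence of NRF1, a transcription factor of many respiratory chain genes. They are the windows of 250 bases before and 50 after the start, credited to RefSeq (GRCm38.p6), at chr4:140961021-140961320 (plus strand, Sdhb), chr9:108936398-108936697 (plus strand, Uqcrc1), chr4:24897833-24898132 (plus strand, Ndufaf4) and chr15:102670998-102671297 (minus strand, Atp5g2). Capitals mark the letters on either strand, and where both strands match they overlap.
Sdhb promoter: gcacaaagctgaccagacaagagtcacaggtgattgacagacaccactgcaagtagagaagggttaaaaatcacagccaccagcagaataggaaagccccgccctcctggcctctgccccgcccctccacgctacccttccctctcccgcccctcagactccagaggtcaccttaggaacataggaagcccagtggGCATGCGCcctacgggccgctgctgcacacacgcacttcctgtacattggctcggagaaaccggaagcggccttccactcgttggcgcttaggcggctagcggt
Uqcrc1 promoter: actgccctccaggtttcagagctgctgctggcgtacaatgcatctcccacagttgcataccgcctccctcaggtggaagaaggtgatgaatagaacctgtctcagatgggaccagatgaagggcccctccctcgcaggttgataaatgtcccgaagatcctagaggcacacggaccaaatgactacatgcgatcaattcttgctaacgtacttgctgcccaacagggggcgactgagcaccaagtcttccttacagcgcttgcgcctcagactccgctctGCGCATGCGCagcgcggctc
Ndufaf4 promoter: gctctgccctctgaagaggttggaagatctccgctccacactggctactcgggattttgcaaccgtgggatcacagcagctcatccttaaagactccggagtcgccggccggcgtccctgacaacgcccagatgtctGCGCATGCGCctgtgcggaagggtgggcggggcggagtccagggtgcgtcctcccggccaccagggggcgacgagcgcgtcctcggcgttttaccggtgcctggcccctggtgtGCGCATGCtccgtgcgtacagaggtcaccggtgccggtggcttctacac
Atp5g2 promoter: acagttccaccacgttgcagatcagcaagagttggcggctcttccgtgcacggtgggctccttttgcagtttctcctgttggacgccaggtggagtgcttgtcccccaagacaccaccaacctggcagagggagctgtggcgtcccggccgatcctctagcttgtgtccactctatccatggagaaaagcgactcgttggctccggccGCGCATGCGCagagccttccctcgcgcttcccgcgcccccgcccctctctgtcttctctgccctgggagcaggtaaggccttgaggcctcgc
A promoter in the table was matched for 77 of the 92 nuclear members. GCATGCGC was found in 12 of them, 15.6%, against 3.05% of the 27025 genes of the table. AAGATGGC, letters of the YY1 recognition sequence, was found in 11 (14.3%, against 3.19% of all), and CCGGAAGT, of ETS factors such as GABPA, in 5 (6.49%, against 4.31%). At 18 h the 12 holders of GCATGCGC held 9 that rose with IL-4 and none that fell, 4 that rose and 1 that fell with LPS, and 1 that rose and 5 that fell with LPS and IFNg. Among all 77 matched members the same counts were 53 and 0 with IL-4, 28 and 7 with LPS, and 12 and 27 with LPS and IFNg. The holders thus included members called higher, called lower and not called.

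Library totals ran between 4181890 and 8122945 counts, with 15450 to 19108 genes detected. Levels are CPM (counts scaled to a common library total) adjusted by TMM, which sets the bulk of genes in each library to a common level, so that a change is relative to that bulk. With scaling by library size alone, the median log2 change of all 12765 genes at 18 h was -0.41 for LPS, -0.54 for LPS with IFNg and -0.07 for IL-4, against 0.01, -0.01 and -0.01 with TMM, and which scaling is closer to the amount per cell was not tested. In bulk RNA, fewer cells of a type and less RNA per cell cannot be told apart. Nothing in the labels ties a replicate to its own mouse or dish, and the p-values therefore describe how much these libraries vary, which may be technical variation alone. At 18 h, 8 macrophage markers summed to 21080 to 22970 CPM by library size with LPS, 9976 to 10240 with LPS and IFNg and 11270 to 11880 with IL-4, against 17200 to 19030 CPM in unstimulated cells. The 6 neutrophil markers summed to 90.6 to 143.0, 21.2 to 41.2 and 107.2 to 154.6 CPM, against 110.7 to 172.4 CPM, and 4 fibroblast markers to 3.58 to 6.26, 1.21 to 1.69 and 0.246 to 0.343 CPM, against 0.173 to 0.725 CPM. These sums moved with the treatments, and their part in the results was not tested. The 4 T cell markers summed to 0.91 to 9.18 CPM over all libraries, with Cd3e at 0. LPS 18 h replicate 2 stood apart: its nuclear members lay a median of 0.36 log2 units above the other replicates (all genes 0.02), and those of IL-4 18 h replicate 2 lay 0.26 above (all genes -0.01). IL-4 18 h replicates also differed in their mitochondrial members, which deviated by a median of -0.35 in replicate 1, 0.04 in replicate 2 and 0.43 in replicate 3.

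In unstimulated cells at 18 h the mitochondrial genes stood far above the nuclear ones per length of exon. Their levels ran from 443.2 CPM per kb for mt-Nd3 to 3151 for mt-Co1, with a median of 715.4. The nuclear subunits had medians of 63.6 CPM per kb in complex IV, 49.7 in complex III, 48.7 in complex II, 44.6 in complex V and 25.7 in complex I. Within complex IV the range was widest, from 2.03 for Cox6a2, an isoform known from heart and muscle, to 235.1 for Cox8a. The muscle and tissue-restricted isoforms were low or under the count minimum: Cox4i2, Cox6b2 and Ndufa4l2 had at most 4 counts in any library and Cox7b2, Cox8b and Cox8c had none. Cox6a2 and Cox7a1 were just inside the rule, with 10 or more counts in 7 and 12 libraries. Levels of single genes within a complex are not protein amounts. The length used was that of all annotated exons of a gene together, so a gene with long annotation reads low. Atp5l, lowest per kb of the complex V subunits at 10.4, has 6443 such bases. How far this length shapes the order of the complexes and the gap to mitochondrial genes was not tested.

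**Figure D1:**
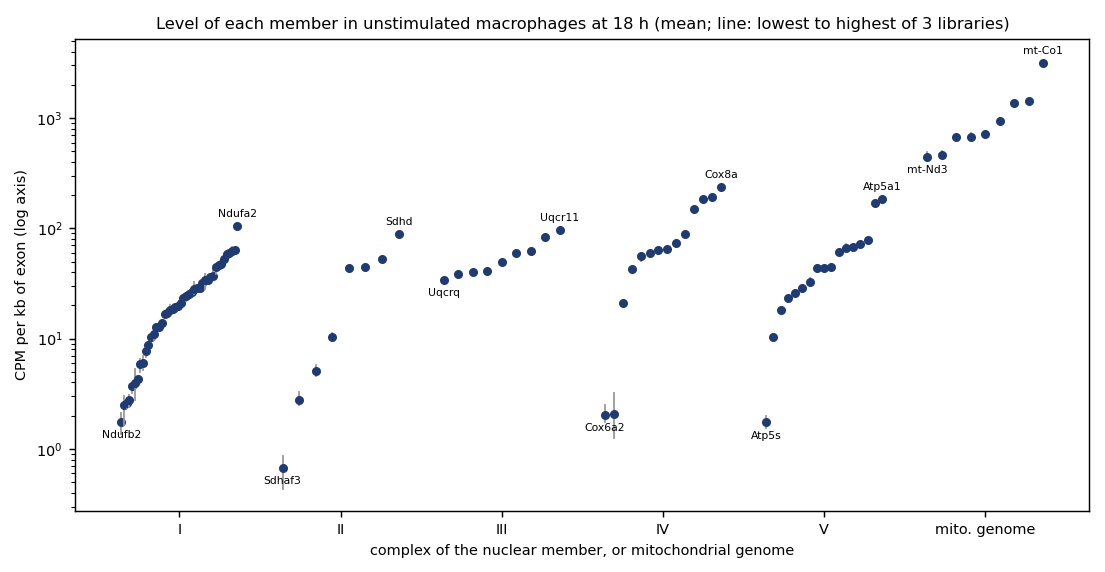
Mean level of each member in 3 unstimulated libraries at 18 h, in CPM per kb of exon on a log axis, ordered within each complex (assembly factors included); grey lines span the lowest to highest library. The 9 mitochondrial genes, from 443.2 to 3151 CPM per kb, lie above every nuclear member.

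After 1 h few members changed. With LPS, 0 of 92 nuclear and 0 of 9 mitochondrial members were called by edgeR's quasi-likelihood test at an adjusted p below 0.05, where 10.8% of all tested genes were called higher and 11.5% lower. An unadjusted p under 0.05 was reached by 8 nuclear members and no mitochondrial one, limma-voom and DESeq2 each called 1 nuclear member higher, and scaling by library size called 8 lower. With IL-4 the counts were also 0 and 0, where 3.22% of all genes were called higher and 3.27% lower. There 6 nuclear members had an unadjusted p under 0.05, DESeq2 and limma-voom called none, and the fit that paired libraries by replicate number called 1 nuclear member higher.

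LPS with IFNg at 1 h called 2 nuclear members higher and 2 lower, against 14.7% of all genes higher and 14.7% lower, and no mitochondrial member by edgeR, limma-voom or DESeq2 or at an unadjusted p under 0.05. Ndufc2, an accessory subunit of complex I, had 38.8, 38.2 and 41.4 CPM in the LPS with IFNg libraries, against 30.2, 35.2 and 30.8 CPM in the unstimulated ones, without overlap. It rose by 0.30 ± 0.10 (log2, SE, adjusted p = 0.022). Uqcrfs1, the Rieske iron-sulfur protein of complex III, rose by 0.26 ± 0.10 (adjusted p = 0.048), and with library-size scaling it was -0.00 and lost its call. Ndufaf4, a complex I assembly factor, had 9.80, 4.77 and 7.35 CPM against 11.6, 10.9 and 11.4 CPM in unstimulated cells, and fell by 0.62 on the log2 scale (SE 0.19, adjusted p = 0.012). Sdhaf1, which helps put iron-sulfur clusters into complex II, had 5.36, 2.98 and 3.41 CPM against 5.52, 7.04 and 8.81 CPM and fell by 0.83 (SE 0.24, adjusted p = 0.0088). Every LPS with IFNg library was below the unstimulated ones for both genes. Each of these 4 calls was lost when a library was left out, for Ndufaf4 and Sdhaf1 without LPS with IFNg replicate 2, for Ndufc2 without unstimulated replicate 1, unstimulated replicate 3 or LPS with IFNg replicate 3, and for Uqcrfs1 without any of 5 of the 6 libraries; Sdhaf1 also lost it without LPS with IFNg replicate 3 or unstimulated replicate 3. Library-size scaling called 29 nuclear members lower and none higher. LPS with IFNg against LPS alone at 1 h called none of the 101 members by edgeR, limma-voom or DESeq2, with 0 at an unadjusted p under 0.05, where 6.51% of all genes were called higher and 5.25% lower.

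At 18 h the stimuli parted, and nuclear and mitochondrial members parted with them. With IL-4, 64 of 92 nuclear members rose and 0 fell, where 19% of all tested genes were called higher and 20.1% lower. DESeq2 called 58 higher and limma-voom 64, neither called any lower, and library-size scaling gave 52 and 0. Of the 9 mitochondrial members, 2 rose and 1 fell. The median log2 change was 0.37 for nuclear members, 0.06 for mitochondrial ones and -0.01 for all genes. Without IL-4 18 h replicate 2, 39 nuclear members were called higher, and mitochondrial calls numbered 1 without replicate 2 and 5 without replicate 3.

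With LPS at 18 h, 34 nuclear members rose and 9 fell, where 31.8% of all genes were called higher and 31.4% lower, and with library-size scaling the direction turned to 5 higher and 46 lower. The 34 make up 37.0% of the nuclear members, near the background share, and the 9 make up 9.78%. Of the 9 mitochondrial members 8 fell and 0 rose. The median log2 change was 0.15 for nuclear members and -0.74 for mitochondrial ones. Under library-size scaling these medians were -0.27 and -1.16, beside -0.41 for all genes. Without LPS 18 h replicate 2, 18 nuclear members were called higher, and without it and IL-4 18 h replicate 2 the counts were 21 higher and 14 lower.

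With LPS and IFNg at 18 h, 15 nuclear members rose and 33 fell, where 36.1% of all genes were called higher and 36.1% lower, and library-size scaling gave 1 higher and 77 lower. The share that fell, 35.9%, was near the background, and the share that rose was 16.3%. Of the mitochondrial members 8 fell and 0 rose. The median log2 change was -0.10 for nuclear and -0.79 for mitochondrial members. These 3 comparisons share the same unstimulated libraries.

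**Figure D2:**
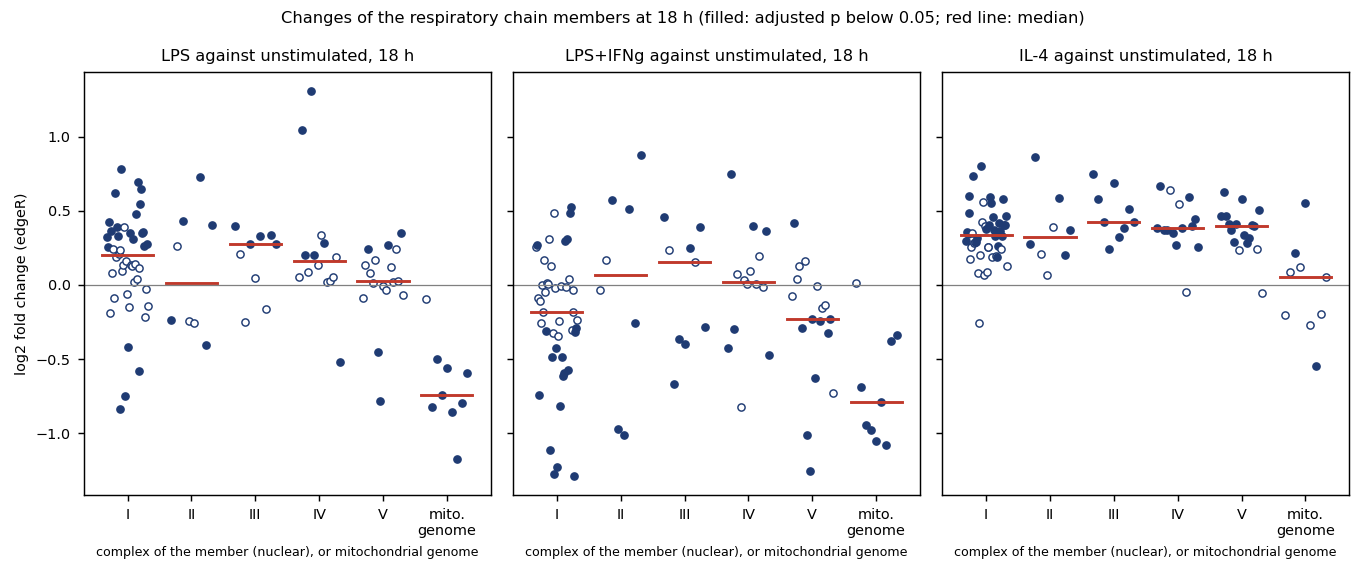
Log2 fold change of each member against unstimulated cells at 18 h (TMM scaling), by complex of the nuclear members and for the mitochondrial genome; filled points were called at an adjusted p below 0.05, hollow ones were not, and red lines are medians. IL-4 points lie mostly above 0, mitochondrial points lie below 0 with LPS, and nuclear points lie on both sides with LPS and with LPS and IFNg, where library-size scaling turned most calls to lower.

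The summed levels show the same split by library. Nuclear members summed to 7120, 8802 and 6971 CPM in the LPS 18 h libraries, to 7022, 7194 and 6928 CPM with LPS and IFNg, and to 8630, 10300 and 8998 CPM with IL-4, against 7042, 6993 and 6875 CPM in unstimulated cells. IL-4 libraries were all above the unstimulated ones, LPS with IFNg overlapped them, and in the LPS group replicate 2 was high while the others lay close to unstimulated cells. Mitochondrial members summed to 9638, 7967 and 8368 CPM with LPS and to 8912, 8804 and 9500 CPM with LPS and IFNg, against 12380, 11430 and 11300 CPM in unstimulated cells, with no overlap. With IL-4 they summed to 8892, 11110 and 13320 CPM, on both sides of the unstimulated libraries. The ratio of nuclear to mitochondrial sums, which no scaling between libraries changes, was 0.892 ± 0.190 with LPS, 0.778 ± 0.045 with LPS and IFNg and 0.858 ± 0.159 with IL-4, against 0.596 ± 0.024 in unstimulated cells (SD, n = 3 each). Every stimulated library at 18 h lay above the highest unstimulated one, 0.612. At 1 h the ratio was 0.565 ± 0.028 with LPS, 0.533 ± 0.026 with LPS and IFNg and 0.610 ± 0.083 with IL-4, against 0.552 ± 0.079 in unstimulated cells, and the groups overlapped. The mitochondrial sums leave out the chromosome 1 copies. In unstimulated libraries at 18 h these held 0.956% to 1.05% of counts, beside 1.31% to 1.45% for the mitochondrial members. How the ratio would differ with the copies included was not tested.

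**Figure D3:**
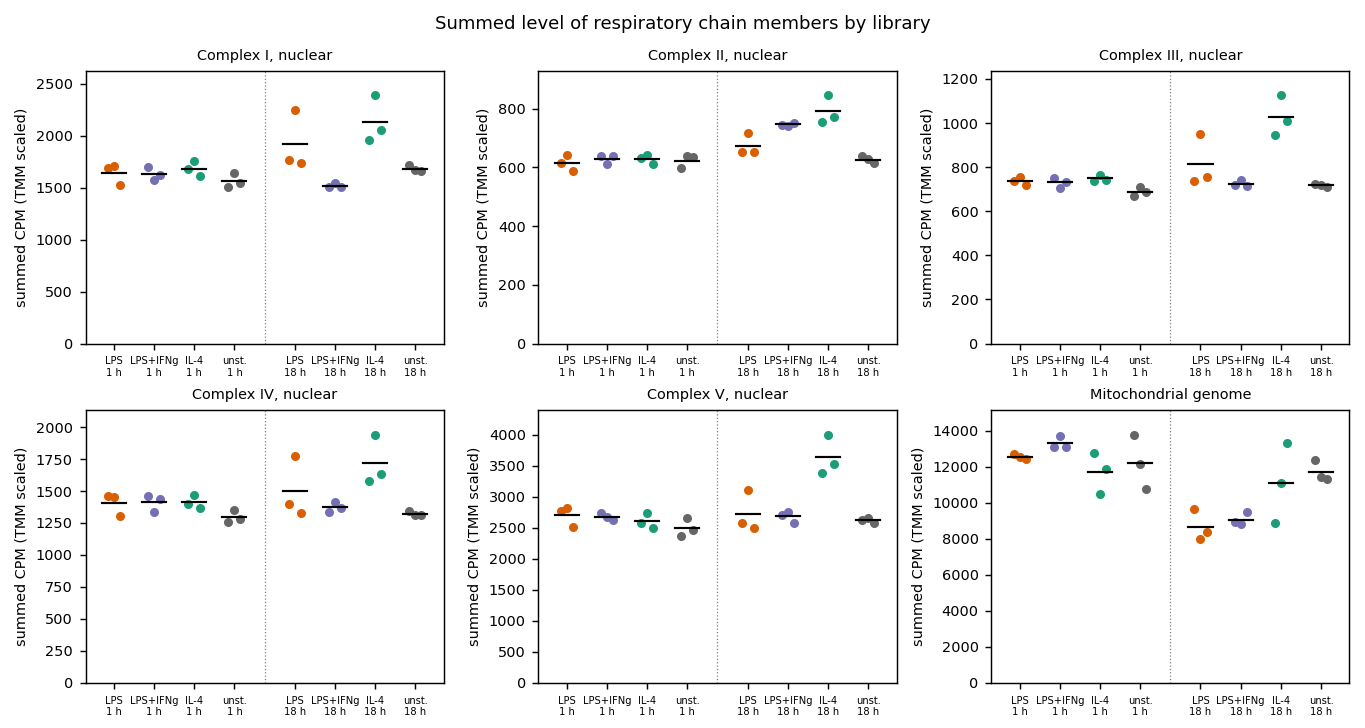
Summed CPM (TMM scaled) of the nuclear members of complexes I to V and of the 9 mitochondrial members in every library; each point is a library, the bar is the mean of 3, and the dotted line parts 1 h from 18 h. At 18 h IL-4 has the highest mean in every nuclear panel, LPS replicate 2 is the highest LPS library in each of them, and the LPS and LPS with IFNg means are lowest in the mitochondrial panel.

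Of the 9 mitochondrial members, 7 encode complex I subunits. All 7 fell with LPS and all 7 fell with LPS and IFNg, with TMM, median-of-ratios and library-size scaling and with scaling that left out mitochondrial genes. The gene mt-Nd1, for the subunit at the joint between the arms of complex I, had 1027, 897 and 970 CPM with LPS, 701, 652 and 781 with LPS and IFNg, and 1367, 1656 and 1747 with IL-4, against 1433, 1343 and 1327 CPM in unstimulated cells. Both LPS groups lay below every unstimulated library, and IL-4 overlapped them. The changes were -0.50 ± 0.08 with LPS (adjusted p = 2.5e-06), -0.94 ± 0.08 with LPS and IFNg (adjusted p = 1.1e-11) and 0.22 ± 0.08 with IL-4 (adjusted p = 0.028). The IL-4 call was lost in 7 of 16 alternatives, among them without unstimulated replicate 2 or 3 and without IL-4 replicate 2 or 3.

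The shortest, mt-Nd4l, had 75.8, 43.3 and 60.8 CPM with LPS, 62.6, 56.8 and 73.8 with LPS and IFNg, and 80.6, 66.9 and 133.6 with IL-4, against 149.3, 131.1 and 127.7 CPM in unstimulated cells. It fell by 1.17 with LPS (adjusted p = 1.6e-06), by 1.08 with LPS and IFNg (adjusted p = 3.6e-06) and by 0.55 with IL-4 (adjusted p = 0.011), so it was the 1 member called lower with all 3 stimuli. The IL-4 group overlapped unstimulated cells and the call was lost without IL-4 replicate 1, IL-4 replicate 2 or unstimulated replicate 1. Its end overlaps the start of mt-Nd4 by 7 bases on the same strand. That gene fell by 0.86 with LPS and by 0.79 with LPS and IFNg, and was -0.27 ± 0.13 and not called with IL-4.

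The gene mt-Nd3 moved both ways. It had 102.6, 117.4 and 94.0 CPM with LPS, 75.8, 71.4 and 75.7 with LPS and IFNg, and 191.3, 258.3 and 229.5 with IL-4, against 169.9, 147.0 and 145.7 CPM in unstimulated cells. No group overlapped the unstimulated libraries. It fell by 0.56 with LPS (adjusted p = 8.9e-06) and by 1.05 with LPS and IFNg (adjusted p = 8.4e-11), and rose by 0.56 ± 0.09 with IL-4 (adjusted p = 1.4e-05), the one mitochondrial call with IL-4 that no alternative removed. Its copy Gm28438 had 26.2, 32.3 and 26.5 CPM with IL-4 against 12.68, 13.85 and 12.99 CPM in unstimulated cells, so the copy was also higher there. With LPS, where mt-Nd3 fell, the mean of Gm28438 was 13.34 CPM against 13.17 CPM in unstimulated cells. With LPS and IFNg the mean of the copy was 8.94 CPM.

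The other complex I genes fell less evenly. With LPS and with LPS and IFNg the changes were -0.74 and -0.98 for mt-Nd2, -0.80 and -0.38 for mt-Nd5, and -0.59 and -0.34 for mt-Nd6, which is encoded on the other strand and overlaps mt-Nd5 by 14 bases. The last, with LPS and IFNg, was lost without LPS with IFNg replicate 1 or unstimulated replicate 1. With IL-4 mt-Nd2 was 0.12 ± 0.08, mt-Nd5 was -0.20 ± 0.11 and mt-Nd6 was 0.06 ± 0.12, none called.

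In complex III, mt-Cytb, the cytochrome b of the complex, had 982, 863 and 804 CPM with LPS, 960, 960 and 991 with LPS and IFNg, and 1271, 1724 and 1995 with IL-4, against 1685, 1531 and 1482 CPM in unstimulated cells. It fell by 0.83 with LPS (adjusted p = 1.4e-07) and by 0.69 with LPS and IFNg (adjusted p = 1.9e-06), and with IL-4 the groups overlapped (0.09 ± 0.11, not called).

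In complex IV, mt-Co1, the catalytic subunit, had 5163, 4142 and 4356 CPM with LPS, 4836, 4780 and 5108 with LPS and IFNg, and 3229, 4213 and 5221 with IL-4, against 5103, 4759 and 4744 CPM in unstimulated cells. All groups overlapped and no change was called (-0.10 ± 0.12, 0.01 ± 0.12 and -0.21 ± 0.12), but library-size scaling called it lower with LPS (-0.52) and with LPS and IFNg (-0.52). The copy Gm29216, which holds part of mt-Co1, was 0.23 ± 0.13 with LPS and 0.21 ± 0.13 with LPS and IFNg, not called. The copies of mt-Co2, mt-Atp6 and mt-Co3 fell by 0.37, 0.56 and 0.36 with LPS and by 0.35, 0.56 and 0.40 with LPS and IFNg, all called, though the LPS call of the mt-Co2 copy was lost without LPS replicate 3. With IL-4 those for mt-Atp6 and mt-Co3 rose by 0.21 ± 0.06 and 0.28 ± 0.07.

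The 2 mitochondrial ribosomal RNAs, transcribed from the same genome but not members, rose with both LPS treatments. The larger, mt-Rnr2, had 986, 884 and 880 CPM with LPS, 499, 491 and 583 with LPS and IFNg, and 100, 117 and 142 with IL-4, against 102, 109 and 103 CPM in unstimulated cells. It was 3.13 ± 0.10 higher (log2) with LPS and 2.32 ± 0.10 with LPS and IFNg, and 0.19 ± 0.10 and not called with IL-4. The smaller, mt-Rnr1, was 2.24 ± 0.10, 1.29 ± 0.10 and 0.39 ± 0.10 higher. These libraries were made with a kit that enriches messenger RNA, so such counts follow both the amount of a ribosomal RNA and how it is captured, which cannot be told apart here.

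**Figure D4:**
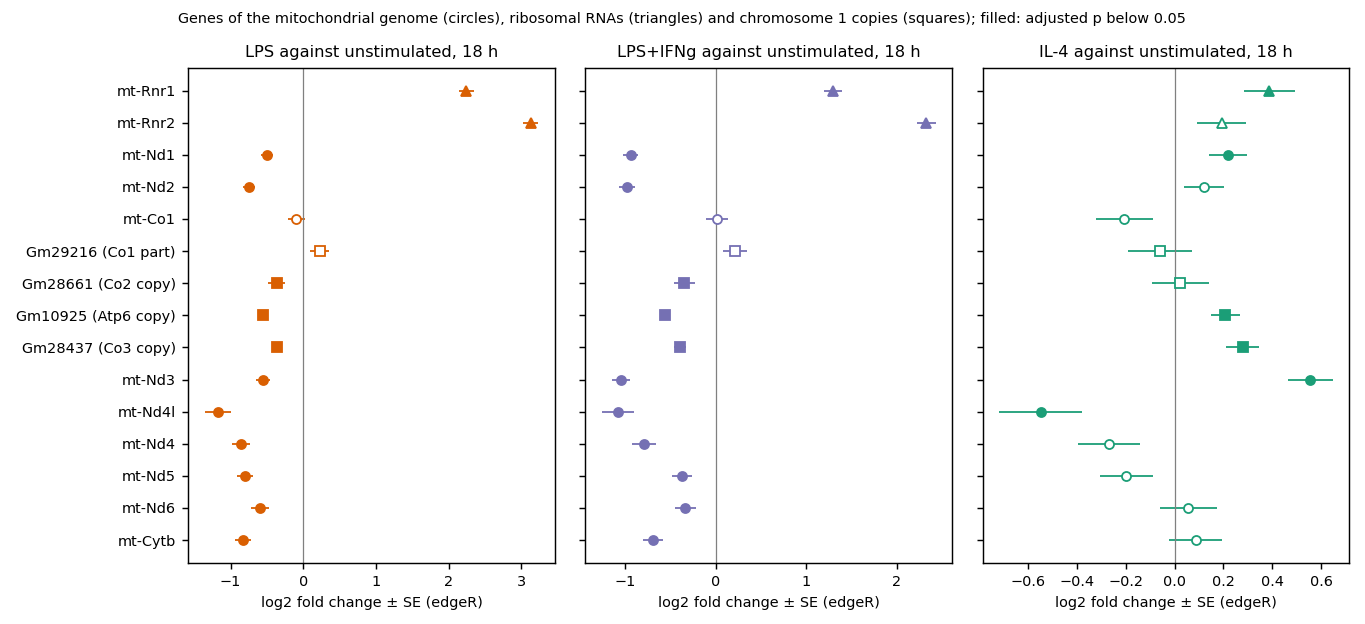
Log2 fold change with its SE for the 9 mitochondrial members (circles), the mitochondrial ribosomal RNAs (triangles) and the chromosome 1 copies (squares), in genome order, against unstimulated cells at 18 h; filled symbols were called at an adjusted p below 0.05, and the panels have their own axes. With LPS and with LPS and IFNg the ribosomal RNAs lie right of 0 and the complex I genes left of it, while mt-Co1 lies at -0.10 and 0.01.

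Nuclear complex I members moved in both directions with LPS. Of 44, 18 rose and 4 fell with LPS, 5 rose and 15 fell with LPS and IFNg, and 25 rose and none fell with IL-4 (median log2 change 0.20, -0.18 and 0.34), while library-size scaling gave 2 and 17, 0 and 40, and 18 and 0. Of all genes, 31.8% were called higher and 31.4% lower with LPS, 36.1% and 36.1% with LPS and IFNg, and 19% and 20.1% with IL-4. The 15 of 44 that fell with LPS and IFNg lie near that share. Leaving out LPS 18 h replicate 2 left 10 called higher with LPS, and leaving out IL-4 18 h replicate 2 left 12 called higher with IL-4. The 7 core subunits, those shared with the bacterial enzyme, all rose with IL-4, while with LPS and IFNg 1 rose and 4 fell.

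Ndufs8, a core subunit that carries iron-sulfur clusters (chr19:3908863-3912774, minus strand), had 28.2, 30.0 and 23.0 CPM with LPS, 15.2, 12.1 and 10.8 with LPS and IFNg, and 39.8, 44.6 and 39.6 with IL-4, against 32.3, 28.3 and 33.6 CPM in unstimulated cells. LPS with IFNg lay below and IL-4 above all unstimulated libraries, and LPS overlapped them. It fell by 1.29 with LPS and IFNg (SE 0.15, adjusted p = 5.2e-09), the largest decrease of a complex I subunit, and rose by 0.40 ± 0.12 with IL-4 (adjusted p = 0.0089), a call lost without IL-4 replicate 2 or unstimulated replicate 2.

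Ndufb11, an accessory subunit of the membrane arm encoded on the X chromosome (chrX:20615326-20617619, minus strand), had 39.0, 51.4 and 41.0 CPM with LPS, 26.67, 26.51 and 20.99 with LPS and IFNg, and 63.2, 65.8 and 56.0 with IL-4, against 59.2, 57.0 and 58.5 CPM in unstimulated cells. It fell by 0.42 with LPS and by 1.23 with LPS and IFNg (adjusted p = 0.00094 and 4.1e-11), and its IL-4 libraries overlapped unstimulated ones. Ndufs1, the largest core subunit, had 54.1, 55.0 and 57.4 CPM with LPS, 58.1, 55.3 and 54.1 with LPS and IFNg, and 88.6, 99.3 and 95.8 with IL-4, against 86.4, 83.5 and 79.7 CPM in unstimulated cells. It fell by 0.58 and by 0.57 with the 2 LPS treatments, and rose by 0.19 ± 0.07 with IL-4 (adjusted p = 0.044), a call lost without IL-4 replicate 2 or 3 or any unstimulated library.

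Others rose. Ndufc2 had 51.8, 65.4 and 53.8 CPM with LPS and 43.4, 39.8 and 47.1 with LPS and IFNg, against 35.5, 34.3 and 35.4 CPM in unstimulated cells, with no overlap. It rose by 0.70 ± 0.10 with LPS (adjusted p = 2.2e-07) and by 0.31 ± 0.10 with LPS and IFNg (adjusted p = 0.0056), which library-size scaling turned to -0.22. Ndufs4, an accessory subunit needed for a stable enzyme, rose by 0.65 ± 0.13 with LPS, by 0.53 ± 0.13 with LPS and IFNg and by 0.37 ± 0.13 with IL-4. With library-size scaling all 3 calls were lost, and the changes with LPS and with LPS and IFNg were 0.22 (adjusted p = 0.12) and -0.01. The IL-4 call was also lost without IL-4 replicate 2 or unstimulated replicate 2 or 3. Ndufa6, an accessory subunit, rose by 0.62 ± 0.11 with LPS, which library-size scaling reduced to 0.20 (adjusted p = 0.088, not called), and by 0.73 ± 0.11 with IL-4.

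Complex II, succinate dehydrogenase, split between its subunits. Of its 8 members, 3 rose and 2 fell with LPS, 3 rose and 3 fell with LPS and IFNg, and 5 rose and none fell with IL-4, where library-size scaling gave 1 and 4, 1 and 4, and 4 and 0. The shares of all genes called higher and lower were 31.8% and 31.4%, 36.1% and 36.1%, and 19% and 20.1%. The counts with the LPS treatments lie near them. Sdhb, the iron-sulfur subunit (chr4:140961203-140979193, plus strand), had 160.1, 189.4 and 150.3 CPM with LPS, 150.2, 132.0 and 147.9 with LPS and IFNg, and 141.4, 160.5 and 150.0 with IL-4, against 102.3, 101.6 and 97.4 CPM in unstimulated cells. All stimulated libraries lay above the unstimulated ones. It rose by 0.73 ± 0.08 with LPS (adjusted p = 1.4e-09), by 0.52 ± 0.08 with LPS and IFNg (adjusted p = 6.4e-07) and by 0.59 ± 0.07 with IL-4 (adjusted p = 2.7e-07). With library-size scaling the LPS with IFNg change was -0.02.

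Sdhd, a membrane anchor (chr9:50596357-50603812, minus strand), had 141.1, 158.2 and 139.2 CPM with LPS, 203.6, 202.1 and 202.4 with LPS and IFNg, and 133.7, 156.9 and 136.5 with IL-4, against 115.2, 107.5 and 107.8 CPM in unstimulated cells. LPS with IFNg was highest, and no stimulated library overlapped the unstimulated ones. It rose by 0.88 ± 0.08 with LPS and IFNg (adjusted p = 1.3e-10), the largest increase of a nuclear member in that comparison, by 0.41 ± 0.09 with LPS, which library-size scaling turned to -0.01, and by 0.37 ± 0.08 with IL-4.

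Sdhc, the other anchor, had 100, 116 and 110 CPM with LPS, 116, 127 and 117 with LPS and IFNg, and 157, 180 and 158 with IL-4, against 149, 142 and 138 CPM in unstimulated cells. It fell by 0.40 with LPS (adjusted p = 1.7e-05) and by 0.25 with LPS and IFNg (adjusted p = 0.0022), and rose by 0.20 ± 0.07 with IL-4 (adjusted p = 0.02), a call lost without IL-4 18 h replicate 2 or unstimulated replicate 2 or 3. Sdha, the flavoprotein that oxidises succinate, fell by 0.24 with LPS (adjusted p = 0.0013), was -0.04 ± 0.06 with LPS and IFNg, and rose by 0.28 ± 0.06 with IL-4 (adjusted p = 0.00047). The subunits of 1 complex therefore differed in the sign of their change with LPS.

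In complex III, 9 of 9 members rose with IL-4, 5 rose and none fell with LPS, and 3 rose and 4 fell with LPS and IFNg, where library-size scaling gave 8 and 0, 0 and 3, and 0 and 7. The shares of all genes called higher and lower were 19% and 20.1%, 31.8% and 31.4%, and 36.1% and 36.1%. The counts with LPS and IFNg lie near theirs. Cyc1, the cytochrome c1 that hands electrons to cytochrome c (chr15:76343523-76346260, plus strand), had 107.2, 134.3 and 108.6 CPM with LPS, 125.0, 122.3 and 117.4 with LPS and IFNg, and 129.6, 164.1 and 150.8 with IL-4, against 90.8, 89.2 and 85.2 CPM in unstimulated cells, without overlap. It rose by 0.40 ± 0.09, 0.46 ± 0.09 and 0.75 ± 0.08 (adjusted p = 2e-04, 2.2e-05 and 2.6e-08), and with library-size scaling the first and second were -0.02 and -0.07. Uqcrc1, a core protein facing the matrix, had 151, 185 and 155 CPM with LPS, 122, 125 and 113 with LPS and IFNg, and 241, 268 and 258 with IL-4, against 155, 155 and 166 CPM in unstimulated cells. It fell by 0.40 with LPS and IFNg (adjusted p = 1.7e-05) and rose by 0.69 ± 0.07 with IL-4 (adjusted p = 4.1e-09). Its partner core protein gene Uqcrc2 rose with all 3 stimuli (0.33, 0.25 and 0.33), though library-size scaling gave -0.09 with LPS and -0.28 with LPS and IFNg.

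In complex IV, 11 of 14 nuclear members rose with IL-4 and none fell, 5 rose and 1 fell with LPS, and 3 rose and 3 fell with LPS and IFNg, where library-size scaling gave 9 and 0, 2 and 10, and 0 and 10. The shares of all genes called higher and lower were 19% and 20.1% with IL-4, 31.8% and 31.4% with LPS, and 36.1% and 36.1% with LPS and IFNg. The 5 of 14 that rose with LPS lie near that share. Leaving out LPS 18 h replicate 2 left 2 called higher with LPS, and leaving out unstimulated replicate 3 left 3. Cox5a, a subunit on the matrix side (chr9:57521274-57532426, plus strand), had 167, 224 and 166 CPM with LPS, 142, 167 and 145 with LPS and IFNg, and 131, 160 and 139 with IL-4, against 90.0, 91.3 and 88.4 CPM in unstimulated cells. Every stimulated library was above every unstimulated one. It rose by 1.04 ± 0.12 with LPS (adjusted p = 7.1e-09), by 0.75 ± 0.12 with LPS and IFNg (adjusted p = 1.8e-06) and by 0.67 ± 0.12 with IL-4 (adjusted p = 3.4e-05). With library-size scaling the LPS with IFNg change was 0.22 and lost its call (adjusted p = 0.091). Part of its exons lies opposite those of Gm26631, and the strand setting of the counting is not given in the sources used here, so reads of that pair are uncertain. The same holds for each of the 34 members whose exons overlap a gene on the other strand. Another gene also matches part of Cox5a at 98% identity or more, with counts of at least 5% of those of Cox5a.

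Cox4i1, the subunit where ATP acts on the enzyme, had 222, 277 and 220 CPM with LPS, 175, 171 and 169 with LPS and IFNg, and 264, 349 and 290 with IL-4, against 225, 224 and 242 CPM in unstimulated cells. It fell by 0.43 with LPS and IFNg (adjusted p = 1e-04) and rose by 0.39 ± 0.09 with IL-4 (adjusted p = 0.00072). Cox6a2 was at 4.79, 2.08 and 3.21 CPM with LPS against 1.69, 1.19 and 1.25 CPM in unstimulated cells, and rose by 1.31 ± 0.38 (adjusted p = 0.0035), a call lost without LPS replicate 1. Only 7 libraries held 10 or more of its counts, and its means were highest at 18 h with LPS (3.36 CPM) and IL-4 (2.11 CPM). The membership of Cox6a2 thus leans on groups where it is high, and its rise is not independent of the rule. Cox7a2l, which helps join complexes III and IV into supercomplexes, had 106.7, 135.3 and 88.6 CPM with LPS, 110.9, 111.9 and 102.5 with LPS and IFNg, and 99.5, 111.9 and 102.6 with IL-4, against 109.9, 104.8 and 109.9 CPM in unstimulated cells. Its changes were 0.02 ± 0.10, 0.00 ± 0.10 and -0.05 ± 0.10 and none was called, but library-size scaling called it lower with LPS (-0.40) and with LPS and IFNg (-0.53).

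Ndufa4, named for complex I but known as a subunit of complex IV, went the other way from its paralogue AA467197, known as Nmes1. Ndufa4 had 59.8, 73.1 and 51.2 CPM with LPS, 62.2, 64.4 and 62.8 with LPS and IFNg, and 92.3, 124.5 and 97.4 with IL-4, against 92.2, 84.3 and 87.0 CPM in unstimulated cells. It fell by 0.52 with LPS (adjusted p = 8.8e-05) and by 0.48 with LPS and IFNg (adjusted p = 0.00018), without overlap. With IL-4 it rose by 0.26 ± 0.10 (adjusted p = 0.037), which was lost in 8 of 16 alternatives, among them without IL-4 18 h replicate 2 and without unstimulated replicate 2 or 3. AA467197, which can take the place of Ndufa4 in complex IV, had 53.6, 78.3 and 42.1 CPM with LPS, 306.3, 352.3 and 299.6 with LPS and IFNg, and 1.94, 1.11 and 0.61 with IL-4, against 0, 0 and 0.783 CPM in unstimulated cells. It was called higher with LPS (adjusted p = 9.3e-17) and with LPS and IFNg (adjusted p = 4e-22), and no fold is given against a group with next to no counts.

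**Figure D5:**
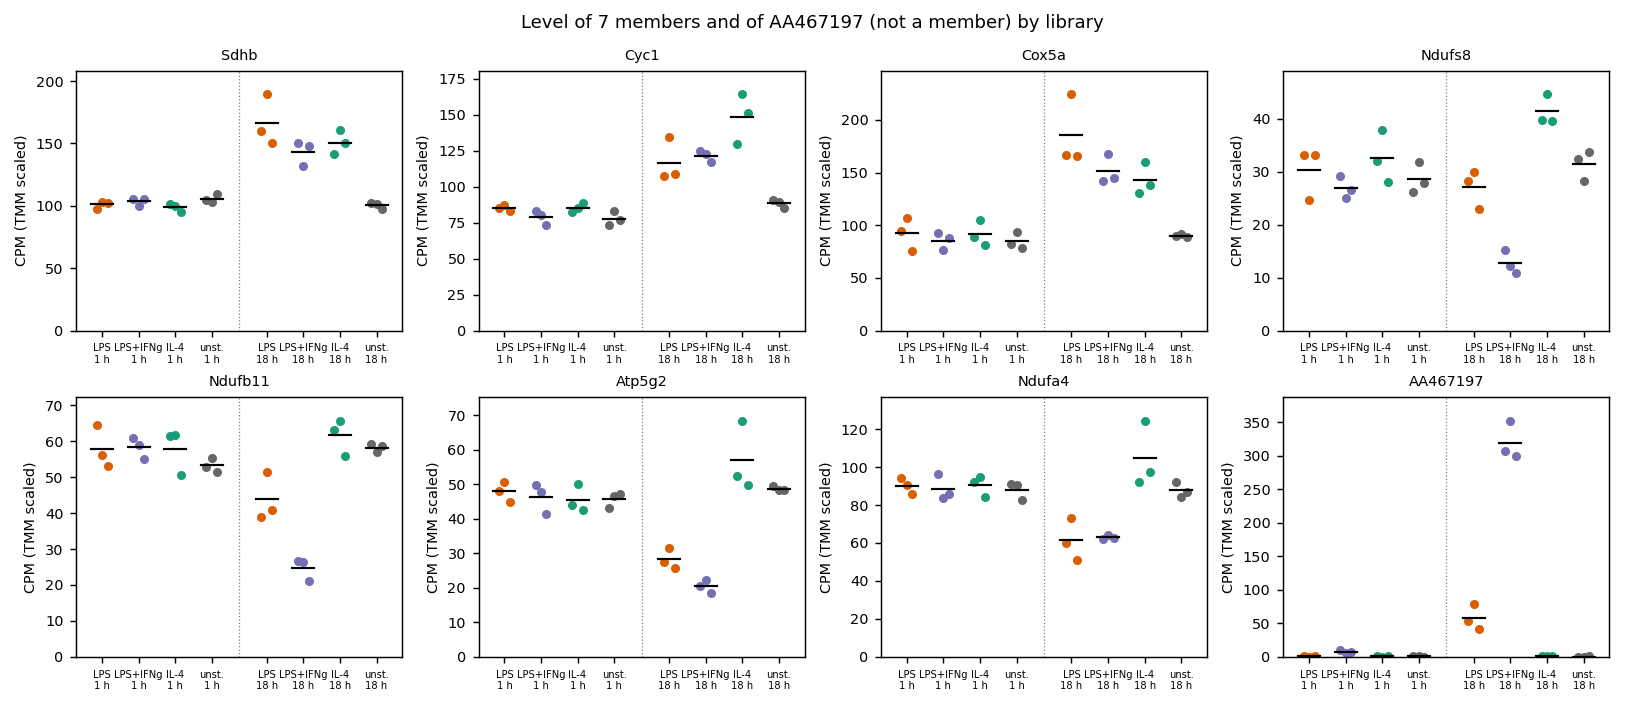
CPM (TMM scaled) of Sdhb, Cyc1, Cox5a, Ndufs8, Ndufb11, Atp5g2, Ndufa4 and AA467197 in each library of the 18 h groups and the 1 h groups; each point is a library and each bar the mean of 3. Sdhb, Cyc1 and Cox5a lie above unstimulated cells in every 18 h stimulated library, Ndufs8 and Ndufb11 are lowest with LPS and IFNg, and AA467197 is at 299.6 to 352.3 CPM there.

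In complex V, 14 of 17 members rose with IL-4 and none fell, 3 rose and 2 fell with LPS, and 1 rose and 8 fell with LPS and IFNg. The shares of all genes called higher and lower were 19% and 20.1%, 31.8% and 31.4%, and 36.1% and 36.1%. Library-size scaling gave 13 and 0, 0 and 12, and 0 and 16, and the 3 that rose with LPS, Atp5c1, Atp5j and Atp5o, were then -0.18, -0.15 and -0.07. Atp5b, the catalytic beta subunit, had 763, 852 and 732 CPM with LPS, 972, 986 and 909 with LPS and IFNg, and 1023, 1171 and 1108 with IL-4, against 719, 725 and 698 CPM in unstimulated cells. It was the 1 that rose with LPS and IFNg (0.42 ± 0.07, adjusted p = 4.1e-06), where library-size scaling gave -0.11, and it rose by 0.62 ± 0.07 with IL-4 (adjusted p = 2.4e-08). Of the 3 genes for subunit c, which forms the rotor ring, Atp5g1 and Atp5g2 fell with LPS. Atp5g1 had 59.1, 78.1 and 60.2 CPM with LPS, 46.2, 44.3 and 42.9 with LPS and IFNg, and 105, 137 and 114 with IL-4, against 88.6, 94.0 and 86.6 CPM in unstimulated cells. It fell by 0.45 and by 1.01 with the LPS treatments (adjusted p = 0.00057 and 2.7e-09) and rose by 0.41 ± 0.10 with IL-4 (adjusted p = 0.0017). Atp5g2 had 27.3, 31.6 and 25.9 CPM with LPS, 20.5, 22.2 and 18.5 with LPS and IFNg, and 52.5, 68.4 and 49.7 with IL-4, against 49.4, 48.2 and 48.4 CPM in unstimulated cells. It fell by 0.79 with LPS (adjusted p = 6.1e-07) and by 1.25 with LPS and IFNg (adjusted p = 9.9e-11), and was 0.23 and not called with IL-4. The third subunit c gene, Atp5g3, was -0.00 and not called with LPS (adjusted p = 0.97), fell by 0.23 with LPS and IFNg, a call lost without unstimulated replicate 1 or 2 or any LPS with IFNg library, and rose by 0.58 ± 0.10 with IL-4. With library-size scaling Atp5g3 was also called lower with LPS (-0.43).

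Assembly factors rose less often than subunits with IL-4, where 2 of 14 rose against 62 of 78 subunits, and none fell. The 2 of 14 lie near the 19% of all genes called higher, and 20.1% of all genes were called lower. Ndufaf4 had 17.1, 18.8 and 17.5 CPM with IL-4 against 11.2, 10.4 and 9.08 CPM in unstimulated cells, and rose by 0.81 ± 0.16 (adjusted p = 0.00014). Sdhaf1 had 11.4, 14.5 and 11.4 CPM with IL-4 against 6.26, 6.26 and 8.14 CPM and rose by 0.86 ± 0.18 (adjusted p = 0.00041), though 1733 bases of its exons lie opposite E130208F15Rik, so its reads are uncertain. With LPS and IFNg 1 rose and 5 fell, where 36.1% of all genes were called higher and 36.1% lower, so the 5 of 14 lie near the background. Ndufaf7, a methyltransferase of complex I assembly, had 5.86, 10.2 and 7.36 CPM with LPS and 6.20, 6.44 and 3.22 with LPS and IFNg, against 11.2, 14.0 and 13.6 CPM in unstimulated cells. It fell by 0.75 and by 1.28 (adjusted p = 0.0012 and 1.9e-06). Ndufaf3, another complex I factor, had 22.9, 30.8 and 18.9 CPM with LPS against 15.1, 12.4 and 14.7 CPM and rose by 0.78 ± 0.15 (adjusted p = 6.7e-05). For low genes such as these the libraries hold few counts, and the smaller changes were not detectable at this depth.

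Across the 3 stimuli at 18 h, which share their controls, 11 members were called higher with all of them: Cox5a, Cox7a2, Cyc1, Ndufa10, Ndufb9, Ndufs3, Ndufs4, Sdhb, Sdhd, Uqcrc2 and Uqcrh. With library-size scaling 0 of the 11 were called higher with all 3. With TMM scaling the most frequent patterns were higher with IL-4 alone (16 members), not called with LPS, lower with LPS and IFNg and higher with IL-4 (14), and no call with any (14). Over all 10 group comparisons 6 members were never called with TMM scaling: Atp5s, Cox7a1, Cox7a2l, mt-Co1, Ndufaf1 and Ndufaf6. Of all genes, 31.8% were called higher with LPS, 36.1% with LPS and IFNg and 19% with IL-4. The share of all genes with each joint pattern, or never called, is not given here, so these counts cannot be set against a background.

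Set directly against LPS at 18 h, LPS with IFNg had 40 nuclear members lower and 4 higher, where 24% of all genes were called higher and 23.4% lower, and library-size scaling gave 55 and 2. The 4 were Sdhd (0.47 ± 0.08), Uqcrfs1 (0.32 ± 0.10), Atp5b (0.29 ± 0.07) and Sdha (0.20 ± 0.06), and the Uqcrfs1 call was lost without LPS replicate 1 or 3 or LPS with IFNg replicate 2. The Sdha call was lost with library-size scaling (0.09, adjusted p = 0.3), with no filter on low counts and in a fit of the compared groups alone, and library-size scaling also removed that of Uqcrfs1. All 22 called complex I members were lower, led by Ndufs8 (-1.08 ± 0.15), Ndufb4 (-0.95 ± 0.18) and Ndufb11 (-0.81 ± 0.12). Of the mitochondrial genes, mt-Nd3, mt-Nd1 and mt-Nd2 were lower (-0.49, -0.44 and -0.24) and mt-Nd5 was higher (0.42 ± 0.11), and the mt-Nd2 call was lost without LPS replicate 1 or 3 or LPS with IFNg replicate 1 or 2. Leaving out LPS 18 h replicate 2 alone raised the nuclear members called higher to 9, and leaving out that library and IL-4 18 h replicate 2 gave 11 higher and 30 lower.

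IL-4 against LPS with IFNg at 18 h gave the widest split, with 71 nuclear members higher and 2 lower, where 37.2% of all genes were called higher and 36.7% lower; library-size scaling gave 89 and 0. The 2 were Sdhd (-0.51 ± 0.08) and Sdhaf2 (-0.37 ± 0.10), and with library-size scaling Sdhd lost its call and Sdhaf2 turned to 0.11. The most increased were Ndufs8 (1.69 ± 0.14), Atp5g2 (1.49 ± 0.11) and Cox6a2 (1.47 ± 0.46). Cox6a2 met the count rule mainly through groups where it was high, IL-4 at 18 h among them. All 7 mitochondrial members called were higher, with mt-Nd3 at 1.61 ± 0.10. Unstimulated cells at 18 h against 1 h had no member called by edgeR, where 4% of all genes were called higher and 8.01% lower. There 8 nuclear members and no mitochondrial one had an unadjusted p under 0.05, limma-voom called 1 nuclear member higher, DESeq2 none, and library-size scaling 6.

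The interaction of stimulus and time tested whether the responses at 18 h and 1 h differed. For LPS, 12 nuclear members were called higher at 18 h than at 1 h and 11 lower, where 27% of all genes were called higher and 27.2% lower, and 8 mitochondrial members were lower; library-size scaling gave 5 and 19 nuclear ones. The nuclear members called lower numbered 6 without LPS 1 h replicate 2 and 7 without unstimulated 1 h replicate 1. For LPS with IFNg, 9 nuclear members were higher and 29 lower, and 8 mitochondrial members lower, where 31.8% of all genes were called higher and 32.2% lower, and library-size scaling gave 5 and 53. For IL-4, 20 nuclear members were higher and 0 lower, and 1 mitochondrial member higher, where 10.1% of all genes were called higher and 11.4% lower. Without IL-4 18 h replicate 2 the 20 became 12, and without unstimulated 1 h replicate 2 they became 13. Sdhb was called higher in all 3 interactions (0.79 ± 0.11, 0.54 ± 0.11 and 0.68 ± 0.11), as was Cox5a (0.92 ± 0.17, 0.74 ± 0.17 and 0.56 ± 0.17), so their levels relative to unstimulated cells were higher at 18 h than at 1 h with each stimulus. Cox5a lost the IL-4 call without IL-4 18 h replicate 2, IL-4 1 h replicate 3 or unstimulated 1 h replicate 2.

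Genes that serve the chain without being members were read from lists. Of 20 complex IV assembly genes tested, 12 rose and 1 fell with LPS, 9 rose and 2 fell with LPS and IFNg, and 3 rose and none fell with IL-4. The shares of all genes called higher and lower were 31.8% and 31.4%, 36.1% and 36.1%, and 19% and 20.1%, and library-size scaling gave 3 and 5, 4 and 9, and 1 and 0. Coa5 averaged 266.7 ± 15.7 CPM with LPS, 663.1 ± 1.15 with LPS and IFNg and 122.1 ± 3.40 with IL-4, against 101.4 ± 4.59 CPM in unstimulated cells (SD, n = 3 each). Sco1, which delivers copper to the enzyme, averaged 65.3 ± 4.86 CPM with LPS and IFNg against 10.3 ± 0.56 CPM. Cytochrome c (Cycs), the carrier between complexes III and IV, rose with all 3 stimuli, by 0.78 ± 0.11, 1.03 ± 0.11 and 0.46 ± 0.11.

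Of 14 genes for mitochondrial transcription and DNA, 2 rose and 6 fell with LPS, 2 rose and 6 fell with LPS and IFNg, and 3 rose and 2 fell with IL-4, beside background shares of 31.8% and 31.4%, 36.1% and 36.1%, and 19% and 20.1%. Library-size scaling gave 1 and 8, 0 and 10, and 3 and 2. Polrmt, the mitochondrial RNA polymerase, ran from 18.6 to 19.1 CPM with LPS and from 12.9 to 16.4 CPM with LPS and IFNg, against 24.2 to 31.0 CPM in unstimulated cells, and fell by 0.57 and by 0.90 (adjusted p = 8.1e-05 and 6.9e-08). Lrpprc, which keeps mitochondrial messengers stable, had 44.7, 41.4 and 39.3 CPM with LPS, 34.0, 31.2 and 31.6 with LPS and IFNg, and 78.8, 78.1 and 66.8 with IL-4, against 61.2, 63.3 and 64.7 CPM. It fell by 0.59 and by 0.96 with the LPS treatments and rose by 0.24 ± 0.08 with IL-4, a call lost without IL-4 replicate 1 or 2 or unstimulated replicate 1. Its partner Slirp rose by 1.28 ± 0.11 with LPS and by 0.94 ± 0.11 with LPS and IFNg. Tfam, which packs mitochondrial DNA, was not called (-0.19 ± 0.14, 0.04 ± 0.13), although library-size scaling called it lower with both LPS treatments.

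Of 4 adenine nucleotide and proton carriers, 0 rose and 3 fell with LPS, 0 rose and 3 fell with LPS and IFNg, and 4 rose and none fell with IL-4, beside the same background shares. Library-size scaling gave 0 and 4, 0 and 4, and 3 and 0. Slc25a5, an ADP/ATP carrier, averaged 508.9 ± 45.7 CPM with IL-4 against 302.4 ± 16.2 CPM in unstimulated cells and rose by 0.75 ± 0.08. Atpif1, the inhibitor of ATP synthase, averaged 65.5 ± 7.62 CPM with LPS and 44.6 ± 4.44 with LPS and IFNg against 139.4 ± 5.46 CPM, and fell by 1.09 and by 1.64. Ppargc1b, a coactivator of respiratory genes, averaged 9.94 ± 0.72 CPM with LPS and IFNg and 8.93 ± 2.10 with IL-4 against 1.61 ± 0.59 CPM, and rose by 2.60 ± 0.28 and 2.42 ± 0.28.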

How the data were processed

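The deposited files hold raw counts per gene, 1 table per library. Per the labels' protocols, RNA was made into libraries with a stranded mRNA kit. Per the submitters' processing notes, STAR, featureCounts, DESeq2, deepTools and GRCm38 were used; versions, the strand setting and the treatment of reads with several matches are not given in the sources used here. Counts were analysed in R 4.3.3 with edgeR 4.0.16: genes were kept by filterByExpr (minimum count 10), scaled by TMM and tested with the quasi-likelihood test in 1 model over all 8 groups, with Benjamini-Hochberg adjustment over all 12765 genes and calls below 0.05. The SE is the log2 change divided by the square root of F. The common biological coefficient of variation was 0.0736. On simulated counts for LPS at 18 h (12765 genes) 49 of 100 genes changed by 0.5 log2 units and 78 of 100 changed by 1 were called, with 4 false calls. There 12565 genes were left unchanged, while the real comparison called 4055 higher and 4002 lower. The simulated shares therefore need not hold for the real data. Alternatives used DESeq2 1.42.0 and limma 3.58.1 among others. Between replicates, the chi-square per gene ran from 1.62 to 11.4, so no libraries were twins. Replicates with the same number correlated over 0.1 in every pair (0.133 to 0.231) only for IL-4 at 1 h, where the labels give no reason for pairing. The named genes are, in each comparison, the mitochondrial members, up to 3 called members with the largest increase and decrease per complex, the Sdh subunits, selected isoforms, and up to 2 genes per list; others were chosen after their values were seen. Members and lists were chosen with earlier results of these data known. Gene names and lengths came from GENCODE M21, promoters from RefSeq. Of the members, 8 have another gene at 98% identity or more over more than 50% of a transcript, and 41 overlap another gene's exon. For 10 members, Cox5a among them, a gene matching part of the transcript at that identity had at least 5% of their counts.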

Additional observations from a re-analysis of the deposited data

Results flagged for a closer look

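The response to each stimulus differed between 18 h and 1 h by the interaction test of edgeR's quasi-likelihood model. For LPS, 12 nuclear members had a higher response at 18 h and 11 a lower one, and 8 mitochondrial members a lower one. Of all genes, 27% had a higher and 27.2% a lower response, so the nuclear shares lie below the background. Of the called nuclear members, the 2 highest and the 2 lowest were Cox6a2 (log2 difference 2.81 ± 0.92, adjusted p = 0.011), a gene with few counts, Ndufaf3 (0.96 ± 0.24, adjusted p = 0.0011), Ndufaf2, a complex I assembly factor (-0.88 ± 0.31, adjusted p = 0.017), and Atp5g2 (-0.86 ± 0.16, adjusted p = 3.5e-05). The Cox6a2 call was lost without unstimulated 1 h replicate 3, and that of Ndufaf2 without LPS 1 h replicate 2 or LPS 18 h replicate 1. Cox6a2 also met the count rule mainly through groups where it was high, LPS at 18 h among them.

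For LPS with IFNg, 9 nuclear members had a higher response at 18 h and 29 a lower one, and 8 mitochondrial members a lower one. Of all genes, 31.8% had a higher and 32.2% a lower response, so the 29 nuclear members lie near the background share. Sdhaf1 differed by 1.00 ± 0.32 (adjusted p = 0.0078), Sdhd by 0.93 ± 0.12 (adjusted p = 9.3e-08), Ndufb11 by -1.36 ± 0.15 (adjusted p = 5.1e-09) and Ndufaf2 by -1.32 ± 0.30 (adjusted p = 0.00034). At 18 h itself Sdhaf1 was 0.17 (log2) and not called with LPS and IFNg. Its mean at 1 h was 3.918 CPM, against 7.125 CPM in unstimulated cells, and that 1 h call was lost when single libraries were left out. Sdhaf1 has few counts, and part of its exons lies opposite another gene.

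For IL-4, 20 nuclear members had a higher response at 18 h and 0 a lower one, and 1 mitochondrial member, mt-Nd3, a higher one. Of all genes, 10.1% had a higher and 11.4% a lower response. Sdhaf1 differed by 1.01 ± 0.28 (adjusted p = 0.0095) and Ndufaf4 by 0.91 ± 0.23 (adjusted p = 0.0047). With 3 libraries a group, no single library was tested for standing apart.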

How the results depend on the processing

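Leaving libraries unscaled for composition moved the most. With library-size scaling, nuclear members called higher and lower numbered 0 and 8 for LPS at 1 h, 5 and 46 for LPS at 18 h, 0 and 29 for LPS with IFNg at 1 h and 1 and 77 at 18 h. Against LPS at 18 h, LPS with IFNg had 2 higher; IL-4 against LPS with IFNg had 0 lower, and unstimulated cells at 18 h against 1 h had 6 higher. The interactions gave 5 and 19 for LPS and 5 and 53 for LPS with IFNg. This scaling turned 20 named values. For LPS at 18 h they were Sdhd -0.014, Cyc1 -0.024, Uqcrh -0.087, Uqcrc2 -0.092, Cox7a2 -0.142, Atp5o -0.071, Atp5j -0.150 and Atp5c1 -0.177. For LPS with IFNg they were Uqcrfs1 -0.002 at 1 h and, at 18 h, Sdhb -0.020, Cyc1 -0.075, Ndufs4 -0.007, Ndufs3 -0.050, Ndufc2 -0.225, Uqcrh -0.144, Uqcrc2 -0.285, Cox7a2 -0.135, Cox8a -0.169 and Atp5b -0.115. For IL-4 against LPS with IFNg it was Sdhaf2, 0.106. The cause was not tested.

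At an adjusted p below 0.01, 22 nuclear members were higher with LPS at 18 h, 0 higher and 1 lower with LPS and IFNg at 1 h, and 1 mitochondrial member was called with IL-4 at 18 h; the interactions gave 7 higher and 6 lower for LPS, 19 lower for LPS with IFNg and 11 higher for IL-4. Subunits alone gave 0 lower for LPS with IFNg at 1 h and 1 lower for IL-4 against LPS with IFNg. Counting the 4 chromosome 1 copies, an alternative chosen after seeing the data, gave 5 mitochondrial calls for IL-4 at 18 h and 2 in its interaction. Median-of-ratios scaling gave 2 higher for LPS at 1 h and 1 higher for unstimulated 18 h against 1 h. With no filter, LPS with IFNg at 1 h had 1 higher, unstimulated 18 h against 1 h had 2 higher, and mitochondrial calls were 6 for IL-4 at 18 h, 1 for LPS with IFNg against LPS at 1 h and 2 for the IL-4 interaction. On the compared groups alone, LPS at 1 h had 1 higher and 1 lower, LPS at 18 h had 22 higher, IL-4 at 1 h had 1 higher, LPS with IFNg against LPS had 1 mitochondrial call at 1 h and 2 nuclear members higher at 18 h, unstimulated 18 h against 1 h had 5 higher and the LPS with IFNg interaction had 15 higher. Limma-voom gave 1 higher for LPS at 1 h and 1 for unstimulated 18 h against 1 h; DESeq2 gave 1 higher for LPS at 1 h and 1 for LPS with IFNg at 1 h.

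With the replicate number as a block, LPS at 1 h had 4 higher and 1 lower, LPS with IFNg at 1 h had 4 higher, IL-4 at 1 h had 1 higher and unstimulated 18 h against 1 h had 2 higher; the labels name nothing that the numbers share, and outside IL-4 at 1 h the samples share only a number. Without LPS 18 h replicate 2 and IL-4 18 h replicate 2, chosen after seeing the data, LPS at 18 h had 21 higher and 14 lower, IL-4 at 18 h had 1 mitochondrial call, LPS with IFNg against LPS had 11 higher and IL-4 against LPS with IFNg had 4 lower.

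With each library left out in turn, nuclear members higher ran from 0 to 2 for LPS at 1 h, 18 to 39 for LPS at 18 h, 0 to 3 for LPS with IFNg at 1 h (lower, 0 to 2), 0 to 1 for IL-4 at 1 h, 39 to 70 for IL-4 at 18 h (mitochondrial calls, 1 to 5), 3 to 9 for LPS with IFNg against LPS at 18 h and 0 to 2 for unstimulated 18 h against 1 h. In the interactions, LPS had 6 to 12 lower and IL-4 had 12 to 25 higher, with 1 to 2 mitochondrial calls. Of the named genes' values, 6602 kept direction and side of the threshold, 318 lost the call and 64 gained one. Precision is limited by 3 libraries a group and, for assembly factors and Cox6a2, by low counts.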

Other observations

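Coenzyme Q, the lipid that takes electrons from complexes I and II, is made by a set of enzymes of which 13 were tested. With LPS 5 rose and 2 fell, with LPS and IFNg 5 rose and 2 fell, and with IL-4 3 rose and 2 fell. The shares of all genes called higher and lower were 31.8% and 31.4%, 36.1% and 36.1%, and 19% and 20.1%, and library-size scaling gave 0 and 5, 1 and 8, and 3 and 2. Of 8 genes that feed electrons to coenzyme Q by other routes, 2 rose and 4 fell with each LPS treatment, and 2 and 5 with library-size scaling. Gpd2, the mitochondrial glycerol-3-phosphate dehydrogenase, rose by 1.21 with LPS and by 2.45 with LPS and IFNg on the log2 scale, and Prodh, proline dehydrogenase, fell by 2.52 with LPS. These lists were chosen with earlier results of these data known, and the values are descriptions.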
